A study of Mus musculus with 2 samples.

Results

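A set of 69 genes had a different dominant transcript in adult and fetal haematopoietic stem cells (HSCs), from which all blood lineages arise. The dominant transcript of a gene is the one with the highest value, and a gene was taken where that transcript differed between the columns headed BM and FL. It also had to hold at least 60% of the gene's summed value in both columns. Only genes with 2 or more transcripts linked to them and a sum of at least 1 FPKM in both columns could qualify. These were 7332 of 28009 genes with a linked transcript. The highest transcript differed for 1004 of them, which is 13.7%, and the 69 genes are 0.941%. The genes were thus selected on their measured shares and sums, so these values are given as descriptions, with no test.

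Adult HSCs, the column headed BM, came from bone marrow of B6129SF1 animals, 6 to 8 weeks old, with 2 samples in the labels. Fetal HSCs, read as the column headed FL, came from E14.5 liver per the labels' protocol, and separate fetal samples were not analysed here. Polyadenylated RNA was sequenced, and the values are the authors' mean FPKM (fragments mapped, scaled by transcript length and library total), 1 value per transcript and column. The labels used here state neither sort markers nor numbers of mice. Without replicate values, no difference has a measured error. The depth is unknown, and "higher" and "lower" describe these columns.

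A gene can give several transcripts through alternative starts, alternative splicing and alternative ends. Some encode different proteins, some share 1 coding sequence and differ in the regions around it, and some, such as transcripts that retain an intron, encode none. Programs such as Cufflinks, named in the submitters' processing notes, apportion fragments between transcripts that overlap, which makes each transcript value an estimate.

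The headers need care. Among 7256 of the eligible genes, 92.6% of FL sums in the transcript table lay within 1.5-fold of a constant ratio to the column headed BM of the gene table. Between the columns headed BM it was 61.3% and, over 7056 genes, 52.3% between those headed FL. Between BM of the transcript table and FL of the gene table it was 49.8%, over 7056 genes. The gene table's FL column thus matched neither column of the transcript table closely. All values below are those of the transcript table under its own headers, unless the gene table is named. Which table's headers match the cells could not be settled, so adult and fetal rest on these headers, and every direction would turn round if they were exchanged. All 22 HSC identity genes were expressed, that is at 1 FPKM or more in at least 1 column. Of the 12220 expressed genes, 8.82% had a sum lower by 2-fold or more in BM. Erythroid markers were so for 11 of 13 genes, macrophage markers for 10 of 10, neutrophil and monocyte markers for 10 of 13, hepatocyte markers for 6 of 7 expressed and endothelial markers for 5 of 9. The summed macrophage markers were at 6.98 FPKM in BM and 255 FPKM in FL, and the summed neutrophil and monocyte markers at 209 and 632 FPKM. Erythroid markers summed to 566 and 1117 FPKM, hepatocyte markers to 13.3 and 42.3 FPKM, and endothelial markers to a similar 88.3 and 96.1 FPKM. The erythroid marker Car1 went the other way, at 44.2 FPKM in BM and 16.9 FPKM in FL. The part of such cells in the results was not tested, and fewer cells of a type and less RNA per cell cannot be told apart.

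The sequences below show coding sequence that separates the dominant transcripts of 3 genes in which a whole coding stretch is present in 1 transcript and absent from the other. They come from the GENCODE vM21 transcripts, with the stretch in capitals and 15 bases of coding sequence on each side in lower case. In Palm, on chromosome 10, 132 coding bases (44 codons) stand in the BM-dominant transcript only. In Tgfbr2, on chromosome 9, 75 coding bases (25 codons) do. In Rc3h2, on chromosome 2, 19 coding bases stand in the FL-dominant transcript only, and that length is not a whole number of codons.
Palm-201, dominant in BM: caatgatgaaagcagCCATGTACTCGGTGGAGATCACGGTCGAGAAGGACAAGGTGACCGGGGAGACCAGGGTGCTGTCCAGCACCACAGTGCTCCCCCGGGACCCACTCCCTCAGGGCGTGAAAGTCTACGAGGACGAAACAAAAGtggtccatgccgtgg
Palm-202, dominant in FL: caatgatgaaagcagtggtccatgccgtgg
Tgfbr2-202, dominant in BM: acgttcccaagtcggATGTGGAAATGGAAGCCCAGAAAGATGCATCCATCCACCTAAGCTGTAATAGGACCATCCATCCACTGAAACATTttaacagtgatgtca
Tgfbr2-201, dominant in FL: acgttcccaagtcggttaacagtgatgtca
Rc3h2-202, dominant in BM: agagacagagtttagggaggagcaaaaacc
Rc3h2-201, dominant in FL: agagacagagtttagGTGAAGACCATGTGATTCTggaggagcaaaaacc

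The clearest case was Pcgf1, which encodes a RING finger subunit of a variant Polycomb repressive complex 1. Its transcript Pcgf1-201 was at 10.8 FPKM in BM and 0.0057 FPKM in FL. Pcgf1-202 was at 0.00848 FPKM in BM and 9.73 FPKM in FL. The gene's sum was nearly the same in both columns, at 10.8 FPKM in BM and 9.74 FPKM in FL. The dominant transcript held 99.9% of it in each. The annotated models are close to each other, however: Pcgf1-201 lies wholly within Pcgf1-202, which adds 52 bases at its ends, and 94.3% of their exonic bases are shared. Their starts lie 44 bases apart, and their coding sequences are 741 and 777 bases long.

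Switches differed widely in how complete they were. The smaller of the 2 dominant shares had a median of 67.6% over the 69 genes, was under 65% in 25 of them and reached 80% in 13. Besides Pcgf1, the highest were those of Dusp7, a phosphatase gene of the MAP kinase pathway, at 97.9%, and of the non-coding gene 0610009E02Rik, at 92.4%. In 18 genes a dominant transcript was listed under 0.001 FPKM in the other column, and in 2 of them both were. Just inside the limit stood Wdcp, with a smaller share of 60.004%, Rc3h2 at 60.1%, March3 at 60.2%, Ino80d at 60.3% and Gca at 60.4%. Just outside were 1700037C18Rik at 59.8%, Fam229b at 59.7%, Rab3a at 59.4%, Gm11423 at 59.4% and Arhgap25 at 59.3%.

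Most of the genes were low. The smaller of the 2 sums had a median of 2.76 FPKM over the 69 genes and 14.3 FPKM over all 7332 eligible genes, and it was under 5 FPKM in 72.5% of the 69 genes against 22.0% of the eligible genes. Only Naa38, Gm15421, Casp8ap2 and March3 had sums of 10 FPKM or more in both columns. The 69 genes also had fewer linked transcripts, with a median of 3 against 5.

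Most of the 69 genes had sums within 2-fold between the columns, as most eligible genes did, while unlike dominant transcripts were required by the rule. The relative log2 ratio used here is log2((BM + 0.1) / (FL + 0.1)), centred on the median gene among those reaching 1 FPKM in each column. It had a median of 0.14 over the 69 genes and 0.03 over the eligible genes. Of the 69, 55 were within 2-fold, 8 (11.6%) were higher in BM and 6 (8.70%) were lower. Among all eligible genes 9.83% were higher and 5.06% were lower, so neither share stands far from the background. In 33 of the 69 genes, the BM-dominant transcript was at least 2-fold higher and the FL-dominant transcript at least 2-fold lower in BM. The rule used these same values and favours such opposed levels, and the count was not taken over other genes. It is thus a description only.

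The genes with unlike sums included Hotairm1, a non-coding RNA of the HoxA cluster, which had a sum of 10.2 FPKM in BM and 1.06 FPKM in FL (relative log2 ratio 3.14). Its short transcript Hotairm1-203 was at 9.48 FPKM in BM and 0.404 FPKM in FL, and Hotairm1-202 at 0.672 and 0.653 FPKM. Only the first of these transcripts thus differed between the columns. Gca, which encodes the calcium-binding protein grancalcin, had sums of 6.87 FPKM in BM and 1.22 FPKM in FL. S100a9, a calprotectin subunit gene of neutrophils and monocytes, was lowest, with 5.04 FPKM in BM and 52.4 FPKM in FL (relative log2 ratio -3.36). S100a9-202 was at 3.07 FPKM in BM and 7.26 FPKM in FL, and S100a9-201 at 1.98 and 45.2 FPKM. These 2 transcripts share 97.5% of their exonic bases and the whole coding sequence, and the other neutrophil and monocyte markers were mostly lower in BM as well, as given above.

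The 69 genes were next put to 3 checks, made on the same deposited values. The first asked whether the linked transcripts account for the gene, by setting the FL sum beside the matching column headed BM of the gene table. No column of the gene table matched the BM sums as closely, so the BM sums were not checked in this way. Of 67 genes present there, 52 (77.6%) lay within 1.5-fold of the common ratio, against 92.0% of the eligible genes. For 10 genes the sum was under 50% of the gene value. The glycolytic enzyme gene Tpi1 had an FL sum of 3.15 FPKM against 460 FPKM in the gene table, and Bak1, a pro-apoptotic BCL2 family gene, 2.65 against 90.7 FPKM. Dusp7 had 2.89 against 23.4 FPKM, and Krr1, a gene of ribosomal RNA processing, 5.28 against 22.7 FPKM. For these genes the linked transcripts thus sum to a small part of the gene table's value, and their switch describes those transcript values only. Tpi1-205, a linked coding transcript with a RefSeq match, was at 0.00839 FPKM in BM and 0.00767 FPKM in FL. Why the 2 tables differ was not tested. In the other direction Gm15421 had 45.3 against 6.16 FPKM and Gm3173 had 1.44 against 0.141 FPKM.

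**Figure D1:**
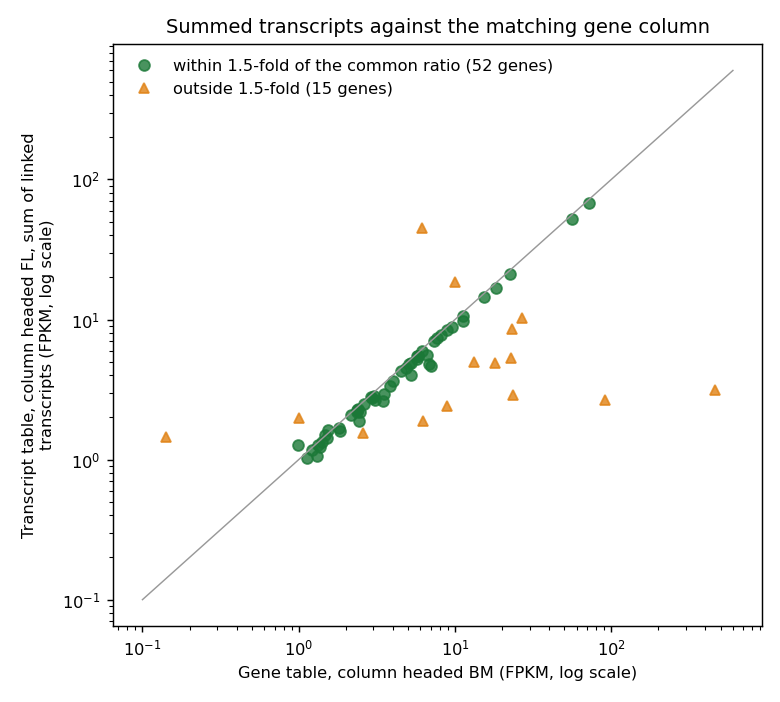
FL sums of the transcript table (vertical axis, FPKM, log scale) against the column headed BM of the gene table (horizontal axis, FPKM, log scale) for 67 of the 69 genes, with a grey line at equal values. The 52 circles follow the line, and the triangles farthest to the right, Tpi1 and Bak1, stand far under it.

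The second check weighted each transcript by its length. FPKM divides by length, so a short transcript needs few fragments to reach a high value. Shares were therefore also taken from FPKM times the annotated length. This product is proportional to fragments only if the authors' program divided by that same length, which is not known. It is thus a rough weighting, above all for short transcripts. With it, the highest transcript still differed in 42 of the 69 genes, and 33 also kept 60% in both columns. In the 27 genes where it no longer differed, the longer transcript was within 2-fold between the columns in 15, and the shorter one at least 2-fold apart in 24. The median length of the shorter dominant transcript was 484 nt among the 36 genes not kept and 958 nt among the 33 kept. Weighting can change shares only where lengths differ, and the rule had used these same levels. These counts and lengths thus follow in part from the selection and the check, and are descriptions.

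Lss, which encodes lanosterol synthase of the cholesterol pathway, shows such a case. Its coding transcript Lss-201, of 4667 nt, was at 4.89 FPKM in BM and 5.51 FPKM in FL. The non-coding Lss-202, of 352 nt, was at 0.185 FPKM in BM and 10.6 FPKM in FL. By FPKM times length the coding transcript held 70.3% in BM and 75.2% in FL. The coding transcript was thus alike in both columns, and the short one differed.

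Casp8ap2, which encodes a protein needed for histone mRNA processing, was alike. Casp8ap2-201 was at 8.62 FPKM in BM and 5.69 FPKM in FL, while Casp8ap2-203, of 300 nt, was at 2.34 and 14.96 FPKM. The coding transcript held 98.0% in BM and 88.9% in FL after weighting. In Zhx2, a zinc finger and homeobox factor gene, Zhx2-201 was at 2.56 FPKM in BM and 1.94 FPKM in FL, and the 211 nt transcript Zhx2-202 was listed under 0.001 FPKM in BM and at 12.6 FPKM in FL.

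Tgfbr2, the gene of the type II receptor for TGF-beta, a signal that restrains HSC division, also left the set after weighting. Tgfbr2-202, which carries the 75-base stretch shown above, was at 5.11 FPKM in BM and 2.85 FPKM in FL. Tgfbr2-201 was at 2.39 FPKM in BM and 4.49 FPKM in FL, and the gene's sum at 7.505 and 7.34 FPKM. The first transcript is 8092 nt long and the second 3476 nt, with ends 4636 bases apart, so the coding stretch and the longer end cannot be told apart as the place of the difference. By FPKM times length Tgfbr2-202 was highest in both columns, with 83.3% in BM and 59.6% in FL.

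**Figure D2:**
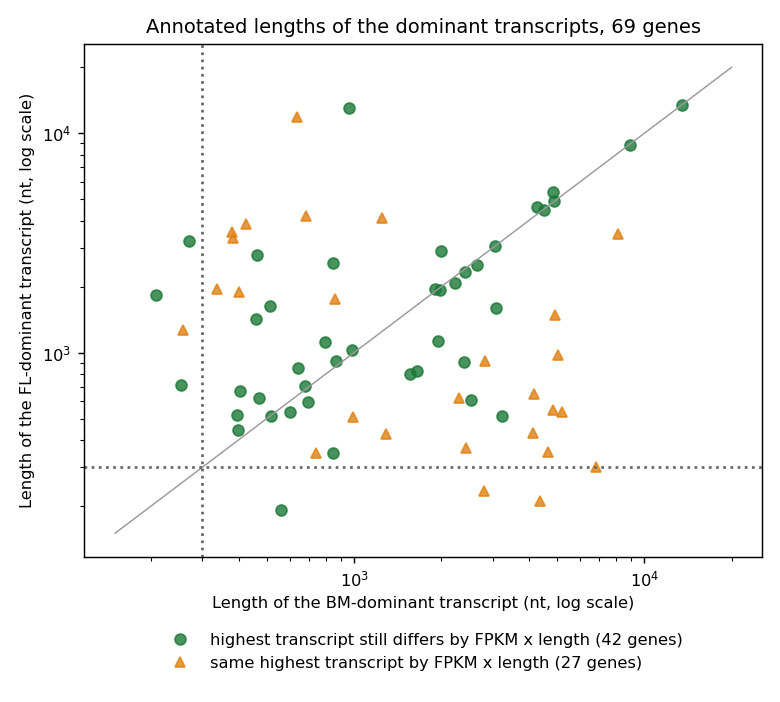
Annotated length of the FL-dominant transcript (vertical axis, nt, log scale) against that of the BM-dominant transcript (horizontal axis, nt, log scale) for the 69 genes, with dotted lines at 300 nt and a grey line at equal length. Triangles, the 27 genes whose highest transcript is the same in both columns by FPKM times length, lie away from the line of equal length. The weighting itself requires this, since it changes nothing at equal length. The circles on that line are pairs of like length.

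The third check left out transcripts under 300 nt, the average fragment size named in the protocol, and 62 of the 69 genes remained. A dominant transcript under 300 nt was present in 10.1% of the 69 genes, against 0.885% of the highest and second transcripts of the 6328 genes with 1 dominant transcript in both columns. Altogether 19 of the 69 genes passed the 3 checks, which were chosen after the values had been seen. They were Pcgf1, Hlcs, Ino80d, Palm, S100a9, Rc3h2, Maff, Slc41a3, Wdcp, Pcyt1b, Islr, Zfp318, St5, Mtcp1, Nmb, Xlr, 0610009E02Rik, Gm15758 and Mypop. Their smaller sums had a median of 2.81 FPKM, against 2.74 FPKM in the other 50, so they were not more abundant.

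**Figure D3:**
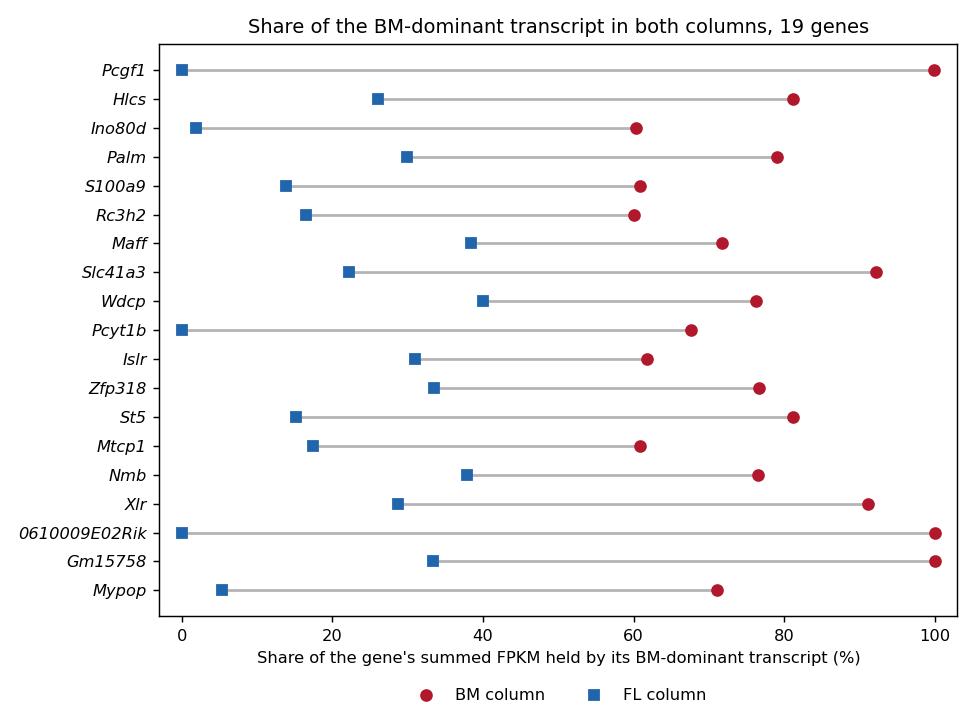
Share of each gene's summed FPKM held by its BM-dominant transcript (horizontal axis, %) in the BM column (circles) and the FL column (squares) for the 19 genes that passed the 3 checks, ordered by the smaller sum. Every circle lies at 60% or more and every square at 40% or less, as the choice of genes requires, and the widest spans are those of Pcgf1 and 0610009E02Rik.

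Ino80d, a subunit gene of the INO80 chromatin remodelling complex, had Ino80d-205 at 4.83 FPKM in BM and 0.103 FPKM in FL. Ino80d-206 was at 2.37 FPKM in BM and 3.76 FPKM in FL. They share start, end and 99.3% of their exonic bases, and a 91-base exon present in the first accompanies coding sequences of 3063 and 2748 bases. Ino80d-205 was thus the one that nearly vanished from FL, while Ino80d-206 stood within 2-fold between the columns.

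Rc3h2, which encodes Roquin-2, an RNA-binding protein that promotes mRNA decay, had Rc3h2-202 at 4.34 FPKM in BM and 0.810 FPKM in FL. Rc3h2-201, with the 19-base stretch, was at 2.22 FPKM in BM and 3.90 FPKM in FL. Their coding sequences are 3375 and 3561 bases long, and their starts also lie 8082 bases apart. Zfp318, a zinc finger gene that in B cells controls splicing between IgM and IgD, had the coding Zfp318-201 at 0.0551 FPKM in BM and 3.49 FPKM in FL. The intron-retaining Zfp318-203 was at 2.01 FPKM in BM and 1.76 FPKM in FL. A further intron-retaining transcript, Zfp318-202, was at 0.557 FPKM in BM and under 0.001 FPKM in FL. Of the dominant transcripts only the coding one thus differed by 2-fold or more, and the gene's sum was 2.62 FPKM in BM and 5.26 FPKM in FL. Mypop, a MYB-related factor gene, had the coding Mypop-203 at 0.808 FPKM in BM and 0.101 FPKM in FL, and the intron-retaining Mypop-202 at 0.329 and 1.69 FPKM.

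Palm encodes paralemmin, a lipid-anchored protein of the plasma membrane. Palm-201, which includes the 132-base stretch, was at 4.15 FPKM in BM and 2.09 FPKM in FL. Palm-202, which lacks it, was at 1.10 FPKM in BM and 4.90 FPKM in FL. The transcripts share both ends, so this stretch is all that separates them, and each was higher in 1 of the columns. Slc41a3, of a magnesium transporter family, had Slc41a3-202 at 3.32 FPKM in BM and 1.87 FPKM in FL and Slc41a3-201 at 0.280 and 6.56 FPKM. Their starts lie 14422 bases apart and their ends coincide, and 273 and 195 coding bases belong to each alone. The gene's sum was lower in BM (relative log2 ratio -1.21).

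Pcyt1b encodes the beta form of the enzyme that controls phosphatidylcholine synthesis. Pcyt1b-202 was at 2.80 FPKM in BM and under 0.001 FPKM in FL. Pcyt1b-201 was at 1.34 FPKM in BM and 2.81 FPKM in FL. Both were thus present in BM, and nearly all of the FL sum lay in Pcyt1b-201. Their starts lie 20239 bases apart on the X chromosome, and they share their end. It was the only gene of the 19 with different RefSeq promoters within 50 bases of both starts, and the 250 bases before each are shown for that reason, with CG dinucleotides in capitals (GRCm38.p6, plus strand).
Pcyt1b-202, dominant in BM, chrX:93654613-93654862: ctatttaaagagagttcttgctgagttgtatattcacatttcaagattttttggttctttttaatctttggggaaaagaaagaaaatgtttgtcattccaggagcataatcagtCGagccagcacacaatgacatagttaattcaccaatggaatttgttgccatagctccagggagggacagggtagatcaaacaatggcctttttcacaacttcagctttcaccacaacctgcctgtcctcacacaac
Pcyt1b-201, dominant in FL, chrX:93674862-93675111: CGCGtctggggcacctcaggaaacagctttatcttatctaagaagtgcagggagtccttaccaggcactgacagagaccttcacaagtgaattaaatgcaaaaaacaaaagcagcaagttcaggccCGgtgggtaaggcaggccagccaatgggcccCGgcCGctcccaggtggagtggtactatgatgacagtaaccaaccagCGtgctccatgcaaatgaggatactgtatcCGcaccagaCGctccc
The first holds 1 CG dinucleotide and 39.6% G and C, and the second 8 and 53.6%. Over all 32851 promoters of the table, the median was 6 CG dinucleotides in the same window, and 49.6% held 5 or fewer.

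**Figure D4:**
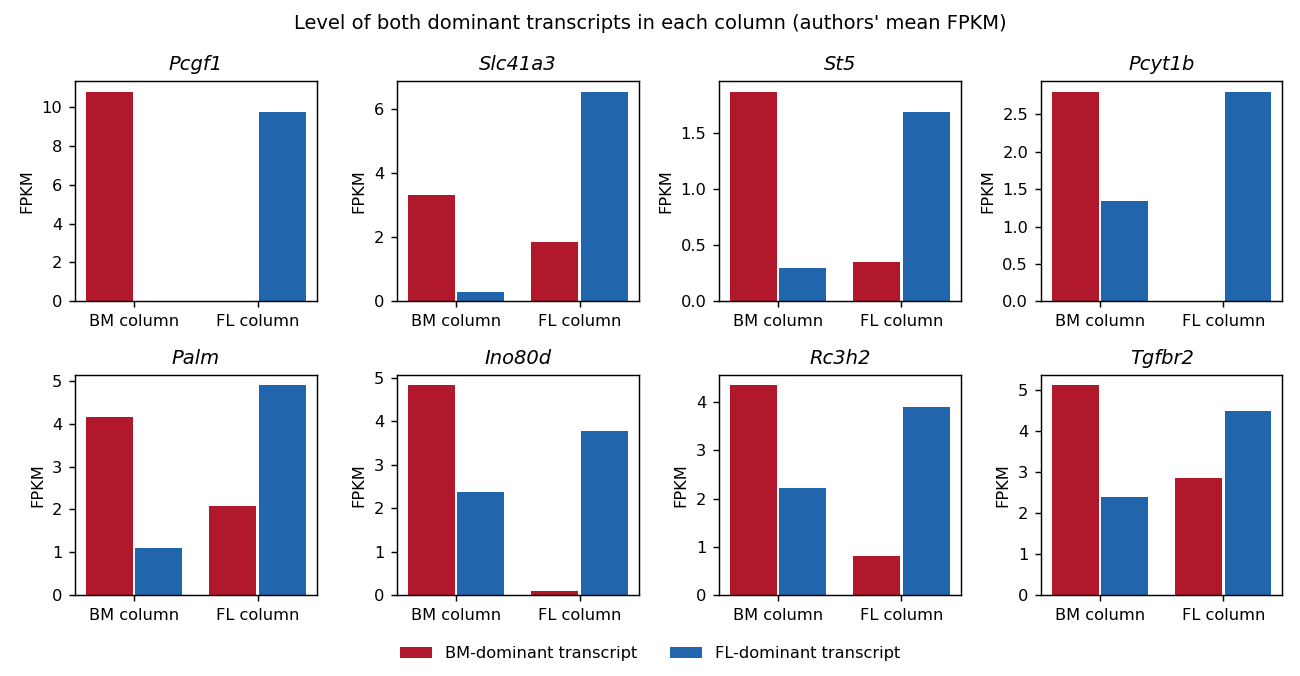
Level in FPKM (vertical axis, from 0) of the BM-dominant (red) and FL-dominant (blue) transcript of 8 genes in the BM column and the FL column; each bar is 1 authors' mean, so there is no error bar. In Pcgf1 each column holds nearly 1 transcript alone, while in Palm and Tgfbr2 both transcripts are present in both columns.

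Starts over 100 bases apart with the same coding sequence were found in 4 of the 19 genes. Hlcs, which encodes the enzyme that attaches biotin to carboxylases, had Hlcs-201 at 5.59 FPKM in BM and 1.44 FPKM in FL and Hlcs-202 at 1.30 and 4.08 FPKM, with starts 25707 bases and ends 422 bases apart. Maff encodes a small Maf factor, which acts on DNA with partner proteins. Maff-202 was at 4.63 FPKM in BM and 1.72 FPKM in FL and Maff-201 at 1.82 and 2.76 FPKM, with starts 544 bases apart. St5 had St5-202 at 1.87 FPKM in BM and 0.348 FPKM in FL and St5-201 at 0.298 and 1.69 FPKM, and equal sums of 2.30 FPKM. Islr, which encodes a secreted or membrane protein of stromal cells, had Islr-201 at 3.41 FPKM in BM and 0.826 FPKM in FL and Islr-202 at 2.11 and 1.84 FPKM. In Hlcs and St5 both transcripts differed by 2-fold or more between the columns, and in Islr only Islr-201 did. Xlr, of an X-linked lymphocyte-regulated family whose near-identical copies make its values uncertain, differs by 48 bases outside its coding sequence. Capn1, the calpain 1 gene, also kept its coding sequence, with Capn1-201 at 7.70 FPKM in BM and 1.84 FPKM in FL and Capn1-202 at 1.44 and 8.45 FPKM. Its FL sum of 10.3 FPKM stood against 26.8 FPKM in the gene table, so it did not pass the first check.

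Wdcp had Wdcp-202 at 2.26 FPKM in BM and 1.45 FPKM in FL and Wdcp-201 at 0.703 and 2.17 FPKM. Nmb, which encodes the peptide neuromedin B, had Nmb-202 at 1.33 FPKM in BM and 1.81 FPKM in FL and Nmb-201 at 0.00228 and 2.97 FPKM. Nmb-202 was thus the higher transcript in BM although its own level was lower there. Mtcp1 and Cmc4 are overlapping genes on the X chromosome whose reads cannot be fully separated, and both were among the 69. Mtcp1-204, which retains an intron, was at 1.36 FPKM in BM and 0.457 FPKM in FL, against 0.589 and 1.97 FPKM for the coding Mtcp1-201. Cmc4-201 was at 8.69 FPKM in BM and 3.07 FPKM in FL, and Cmc4-203 at 1.99 and 5.76 FPKM.

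Genes with neither dominant transcript protein-coding were more frequent among the 69 than in the background, and genes with both were about as frequent. Both dominant transcripts were protein-coding in 35 genes (50.7%), 1 was in 21 (30.4%) and neither in 13 (18.8%). Among the genes with 1 dominant transcript, both of the highest and second transcripts were protein-coding in 52.9%, 1 was in 43.9% and neither in 3.24%. By coding sequence, 27 genes (39.1%) had different coding sequences and 9 (13.0%) the same one, against 49.8% and 11.3% of the background pairs. In 13 genes the BM-dominant transcript had no coding sequence and the FL-dominant transcript had one, in 8 it was the other way round, and in 12 neither had one. Yrdc, a gene of transfer RNA modification, belongs to the 13. Its intron-retaining Yrdc-203 was at 7.79 FPKM in BM and under 0.001 FPKM in FL, and the coding Yrdc-201 at 0.503 and 7.73 FPKM. Its FL sum of 8.50 FPKM was well under the 23.1 FPKM of the gene table. Naa38, which encodes a subunit of an N-terminal acetyltransferase and had the highest sums of the 69 (64.6 FPKM in BM and 67.6 FPKM in FL), had the non-coding Naa38-202 at 42.1 FPKM in BM and 18.7 FPKM in FL. Its coding transcript Naa38-204 was at 22.2 FPKM in BM and 45.1 FPKM in FL. It left the set under length weighting, since Naa38-202 then held 53.1% in BM.

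Other genes with large shares or sums fell outside the 19. Tprn, which encodes the stereocilia protein taperin, had Tprn-204 at 4.25 FPKM in BM and under 0.001 FPKM in FL and Tprn-201 under 0.001 FPKM in BM and at 4.26 FPKM in FL. Adcy9, an adenylyl cyclase gene, had Adcy9-202 at 3.83 FPKM in BM and under 0.001 FPKM in FL and Adcy9-201 at 0.738 FPKM in BM and 1.53 FPKM in FL. M1ap had M1ap-202 at 1.12 FPKM in BM and under 0.001 FPKM in FL and M1ap-201 at 0.204 FPKM in BM and 1.16 FPKM in FL. In each of these genes, 1 transcript or both were thus nearly absent from a column. Pyroxd1, an oxidoreductase gene, had the coding Pyroxd1-201 at 3.77 FPKM in BM and 1.47 FPKM in FL and the non-coding Pyroxd1-202 at 1.26 FPKM in BM and 4.02 FPKM in FL. Zfp94 had Zfp94-201 at 3.27 FPKM in BM and 0.220 FPKM in FL and Zfp94-206 at 0.640 FPKM in BM and 2.89 FPKM in FL. In both genes the coding transcript was the higher one in BM and the non-coding transcript in FL. Zfp991 had Zfp991-201 at 7.17 FPKM in BM and 4.24 FPKM in FL and Zfp991-202, of 234 nt, at 2.75 FPKM in BM and 14.2 FPKM in FL. March3, a membrane-bound ubiquitin ligase gene, had March3-201 at 6.73 FPKM in BM and 4.21 FPKM in FL and March3-202 at 3.45 FPKM in BM and 6.42 FPKM in FL. Among genes with no coding transcript on either side, Ccdc191 had the 208 nt transcript Ccdc191-204 at 16.6 FPKM in BM and listed at 0 in FL, and Ccdc191-201 at 4.21 FPKM in BM and 3.99 FPKM in FL. The sums of the 69 genes spanned 1.02 to 67.6 FPKM, and the genes lay on 20 chromosomes.

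The dominant transcripts of the 69 genes were also less well annotated. A RefSeq match existed for 34 of the BM-dominant (49.3%) and 36 of the FL-dominant transcripts (52.2%), against 82.0% of the dominant transcripts of the 6328 genes without a switch. Both had one in 15 genes, 11 of them among the 19. Starts were over 100 bases apart in 44 of the 69 genes and ends in 49, against 53.3% and 75.5% of the pairs of highest and second transcripts in genes without a switch. Shared exonic bases had a median of 27.1% of the union over the 69 genes and 32.5% over those pairs. Exons of another gene overlapped a dominant transcript in 25 of the 69 genes, and the kit named in the protocol does not mark strand. This overlap was not counted over the other eligible genes, so it cannot be called particular to the 69.

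**Figure D5:**
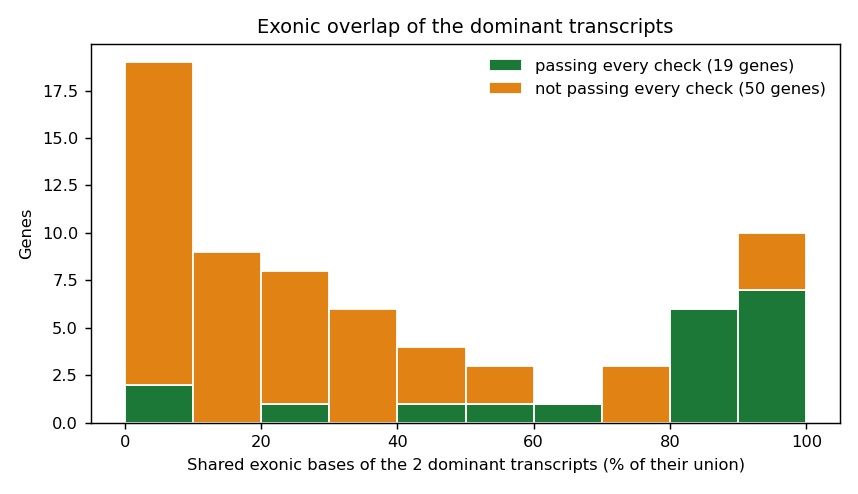
Number of genes (vertical axis) by the share of exonic bases common to both dominant transcripts (horizontal axis, % of their union, steps of 10), stacked for the 19 genes that passed the 3 checks and the 50 that did not. At 80% or more lay 13 of the 19, while 26 of the 50 lay under 20%. The longer dominant transcript was a median of 1.06 times the shorter in the 19 and 3.31 times in the 50. Length weighting acts on pairs of unlike length, and such pairs cannot share most of their union. The contrast thus follows in part from the checks.

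Genes whose products shape transcripts were mostly within 2-fold. Of 52 expressed splicing factor genes 3 were higher and 1 was lower in BM, against 13.3% and 8.82% of all 12220 expressed genes. The higher ones were Mbnl2, at 13.7 FPKM in BM and 5.57 FPKM in FL, and the kinase genes Clk1 (124 and 43.3 FPKM) and Clk4 (85.5 and 26.2 FPKM), whose products phosphorylate SR proteins. The lower one was Hnrnpf, at 114 FPKM in BM and 233 FPKM in FL. All 20 genes of 3' end processing and all 15 of nonsense-mediated decay, which removes transcripts with early stops, were within 2-fold. None of these 3 lists held one of the 69 genes, nor did those of HSC identity, haematopoietic transcription factors, genome organisation, and chromatin and DNA methylation. These lists had 10 to 42 eligible genes each. The 69 are 0.941% of all eligible genes, so an absence from lists of this size is near that share. The highest transcript differed, at shares under 60% in at least 1 column, in 4 of 42 eligible splicing factor genes. Among haematopoietic transcription factor genes it differed in 7 of 22 (31.8%, against 13.7% of all eligible genes). It differed in 1 of 19 HSC identity genes (5.26%), in 1 of 26 genes of genome organisation (3.85%) and in 1 of 26 of chromatin and DNA methylation (3.85%). Ikzf1, the Ikaros gene, had Ikzf1-204 as highest with 40.1% in BM and Ikzf1-206 with 62.2% in FL, and Gata3 had Gata3-201 with 100% in BM and Gata3-205 with 55.7% in FL.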

How the data were processed

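Per the file headers, the authors deposited FPKM values per gene and per transcript, in columns headed FL and BM without replicate numbers. Per the submitters' processing notes, the tools were TopHat, Cufflinks, featureCounts of Subread and edgeR, with mm9 as build and no role, order or version. Among non-zero transcript values with 7 significant digits, 88.1% in BM and 87.6% in FL ended in 5, the pattern that a mean of 2 rounded values leaves. Only the protocol ties the header FL to fetal liver.

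Transcripts were linked to genes by Ensembl identifier with GENCODE vM21 (GRCm38), which matched 76507 of 87641. The unlinked ones carried 10.9% of FPKM in BM and 10.4% in FL. Lengths, biotypes and exon structure are those of vM21 and may differ from the annotation the authors used. Starts or ends over 100 bases apart counted as different. Exonic overlap is shared bases over the union. Promoters are from RefSeq, with 45 of the 69 genes matched by symbol. The code of the rule was run on simulated shares with planted switches and no noise, which checks the code and not the rate of false switches. Python 3.11.15, numpy 2.4.6, pandas 2.3.3, scipy 1.17.1 and matplotlib 3.10.9 were used.

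The genes and lists were chosen with earlier results of these data known. Genes were named by level, share, coding class, ratio and list membership; others were chosen after their values were seen. No test was run, since each column is 1 mean value.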

Additional observations from a re-analysis of the deposited data

How the results depend on the processing

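The number of genes depended on the limits: 278 at a share of 50%, 29 at 70% and 13 at 80%, and 19 and 4 at sums of 5 and 10 FPKM, against 69. It was 52 with FL sums near the gene table, 63 without transcripts under 300 nt (62 shared), 69 with transcripts under 0.1 FPKM set to 0 (68 shared) and 68 with protein-coding transcripts only (35 shared). Shares from FPKM times length, chosen after seeing the data, gave 59 genes, 33 of them shared.

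Both dominant transcripts were protein-coding in 38.5% of genes at a share of 80%, 25% at 10 FPKM and 67.8% with length weighting, against 50.7%. Coding sequences differed in 23.1% at 80% and 25% at 10 FPKM, against 39.1%. Starts were apart in 48.9% at 50%, 76.9% at 80% and 75% at 10 FPKM, against 63.8%. Ends were apart in 57.9% at 5 FPKM, 50% at 10 FPKM and 50.8% with length weighting, against 71.0%. The median exonic overlap was 77.4% with length weighting. At sums of 5 FPKM, which left 19 genes, 1 gene was higher and 2 were lower in BM. Pseudocounts of 0.01 and 1 and other scalings left 6 to 8 higher and 5 to 8 lower genes. The cause of these differences was not tested.

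No paired analysis was possible because the columns carry no replicate values, and leaving out a replicate was not run for that reason. Without counts, the depth limits every low transcript value to an unknown degree.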
